A study of Homo sapiens with 6 samples.

Results

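Respiratory complex I, the NADH:ubiquinone oxidoreductase of the inner mitochondrial membrane, was followed here through the mRNAs of 43 of its subunits. The members were the gene rows whose Ensembl ID maps to a listed symbol, 36 nuclear NDUF genes and the 7 MT-ND genes of the mitochondrial genome, out of 64252 rows in the count table. All 43 passed the filter on low counts, as did 18734 rows in all. The cells were SK-N-BE(2), an established human neuroblastoma line with amplified MYCN, and every library came from this line. The control group carried a control short hairpin RNA (shControl, 2 libraries). The other groups carried hairpin 1 (shBCAT1#1, 2 libraries) or hairpin 2 (shBCAT1#2, 2 libraries) against BCAT1, a cytosolic aminotransferase of leucine, isoleucine and valine. Neither the time after hairpin delivery nor whether replicates came from separate cultures is given in the sources used here, so the p-values cover no more than the spread among these libraries, which can be technical. Library totals ran from 32333416 to 39321388 counts. Levels are given as CPM, library-size scaled counts with TMM normalization, and changes are log2 fold changes from edgeR's quasi-likelihood test, called at a Benjamini-Hochberg adjusted p under 0.05 over all genes tested. Gene positions are those of the GENCODE annotation on hg38.

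Complex I takes electrons from NADH through a flavin and a chain of iron-sulfur clusters to ubiquinone, and couples this to proton pumping across the inner membrane. Its peripheral arm, in the matrix, holds the NADH-oxidizing and quinone modules, and its membrane arm holds the proton-pumping core, which the mitochondrial genome encodes, surrounded by nuclear-encoded accessory subunits. Assembly therefore joins products of both genomes, made by separate transcription and translation systems. Neuroblastoma arises from sympathetic precursors, and some of its lines carry an amplified MYCN gene.

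BCAT1 mRNA checked the labels: the controls stood at 459 and 475 CPM, the libraries with hairpin 1 at 55.7 and 55.3 CPM and those with hairpin 2 at 115 and 111 CPM, so all 4 knockdown libraries lay far below both controls (log2 fold change −3.07 with hairpin 1 and −2.04 with hairpin 2). All 10 sympathetic neuroblastoma markers were detected, with a summed level of 3910 to 3920 CPM in control, 3380 to 3470 CPM with hairpin 1 and 2870 to 2970 CPM with hairpin 2. Of these markers 5 fell and 5 rose with hairpin 1, where 24.9% and 24.2% of all genes tested did. With hairpin 2, 9 fell and 1 rose, where 25.4% and 23.9% of all genes did. A part of the markers thus moved in opposite directions with the hairpins. The 7 fibroblast markers, 1 of them under 1 CPM in every library, summed to 1280 CPM in both controls. Their sum was 806 to 808 CPM with hairpin 1 and 894 to 895 CPM with hairpin 2. Over both hairpins against control all 7 fell, where 26.4% of all genes tested did. With hairpin 1 alone 6 fell and with hairpin 2 alone 4 fell, where 24.9% and 25.4% of all genes did. Leukocyte markers were at or near 0 for 4 of 5 (CD3E at 0 in every library), and CD68 alone carried their sum of 14.4 to 37.8 CPM. Schwann cell markers, with SOX10 at 0 in every library, summed to 1.51 to 2.36 CPM, endothelial markers to 6.14 to 7.37 CPM and epithelial markers to 17.7 to 26.4 CPM. In bulk RNA, fewer cells of a type and less RNA per cell cannot be told apart, and the part of these marker shifts in the complex I values was not tested.

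Most nuclear complex I mRNAs were lower after BCAT1 knockdown, while the mitochondrially encoded ones showed no common direction. Over both hairpins against control, 27 of 36 nuclear members fell, where 26.4% of all genes tested fell, and 1 rose, NDUFS1, where 23.6% of all genes rose. The nuclear members' median log2 fold change was −0.39, against −0.01 over all genes tested. Changes were small: 1.67-fold for NDUFA13 was the steepest called fall. In 28 of 36 nuclear members all 4 knockdown libraries lay below both controls, which held for 23.6% of all genes tested. With hairpin 1 alone 26 fell and 1 rose, where 24.9% and 24.2% of all genes did, with a median of −0.36. With hairpin 2 alone 27 fell and none rose, where 25.4% and 23.9% of all genes did, with a median of −0.38. At an unadjusted p under 0.05 1 member, NDUFS1, was higher with hairpin 2 by edgeR, and DESeq2 called that 1 after adjustment while limma-voom called 0. These comparisons share the 2 control libraries, and 23 members fell in each, as did 13.9% of all genes tested. The 8 members that did not pass over both hairpins were NDUFV3, NDUFS4, NDUFA5, NDUFA9, NDUFA12, NDUFA3, NDUFA10 and NDUFB4. When edgeR's glmTreat asked for a fold above 1.5, NDUFA13 alone passed over both hairpins, and 2.71% of all genes tested were lower by that test, a share near 1 of 36.

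**Figure D1:**
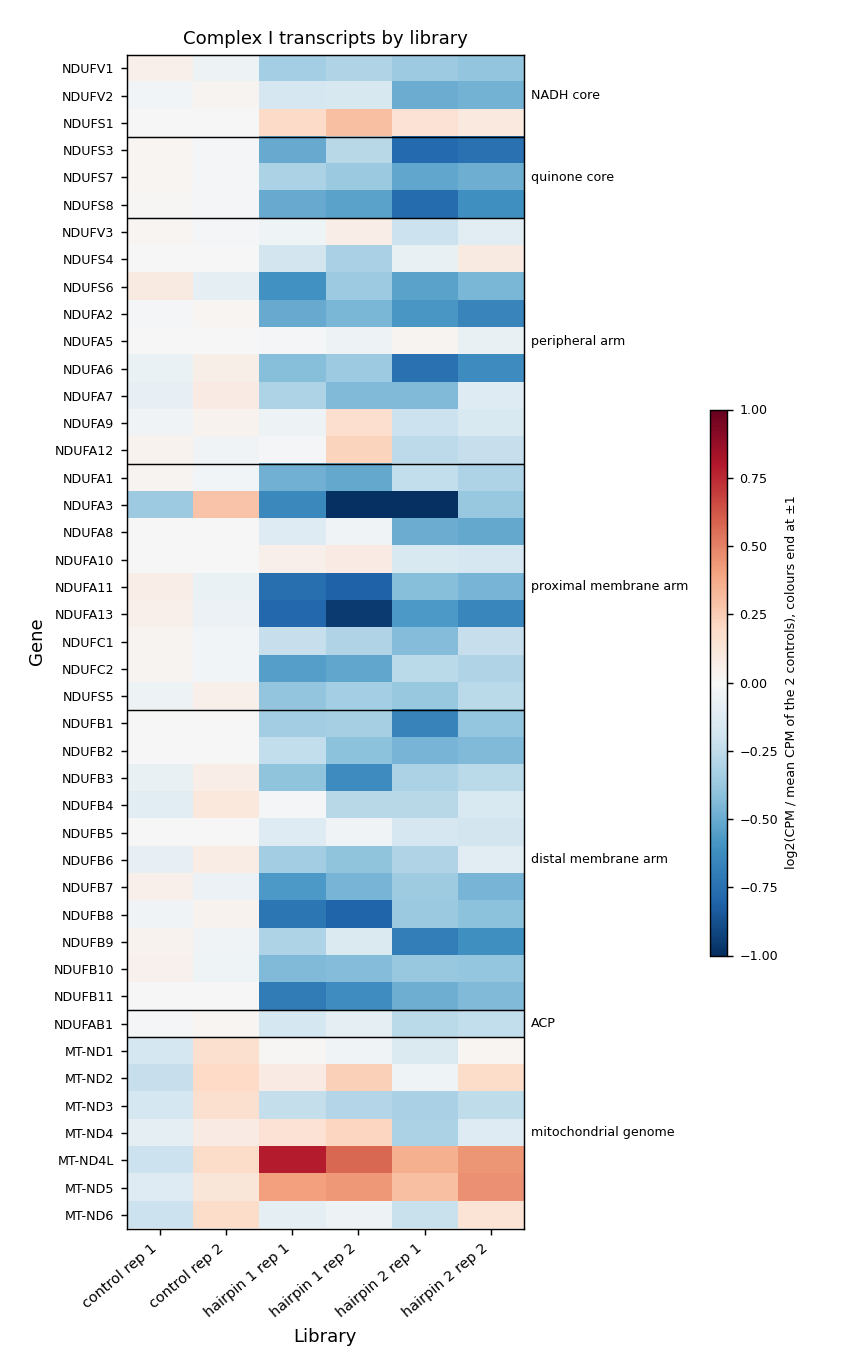
Level of each of the 43 complex I mRNAs (y axis, grouped by role) in each of the 6 libraries (x axis), coloured by log2 of CPM over the mean of the 2 controls, with colours ending at ±1. Blue fills most nuclear cells of the 4 knockdown columns, NDUFS1 is red, and among the mitochondrial genes MT-ND4L and MT-ND5 are red in all 4.

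The NADH-oxidizing core split by direction. NDUFV1 (ENSG00000167792, chromosome 11, 67605653 to 67612554, plus strand), which binds NADH and the flavin, stood in control libraries at 317 and 295 CPM, with hairpin 1 at 242 and 249 CPM and with hairpin 2 at 238 and 232 CPM. Every knockdown library was below both controls (log2 change −0.35, SE 0.04, adjusted p = 0.00012 by edgeR). NDUFV2 (ENSG00000178127, chromosome 18, 9102630 to 9134345, plus strand), which carries an iron-sulfur cluster next to it, held 67.8 and 70.6 CPM in control, 61.6 and 61.9 CPM with hairpin 1 and 49.0 and 49.8 CPM with hairpin 2. The groups did not overlap, and hairpin 2 lay lowest (log2 change −0.33, SE 0.04, adjusted p = 0.00023 by edgeR). NDUFS1 (ENSG00000023228, chromosome 2, 206114817 to 206159603, minus strand), the largest subunit, which relays electrons through several iron-sulfur clusters, went the other way: the controls stood at 153 and 153 CPM, the libraries with hairpin 1 at 175 and 188 CPM and those with hairpin 2 at 169 and 164 CPM. All 4 knockdown libraries exceeded both controls (log2 change 0.18, SE 0.04, adjusted p = 0.0052 by edgeR), and the rise passed with hairpin 1 (0.25, adjusted p = 0.0024 by edgeR) but not with hairpin 2 (0.12, adjusted p = 0.055 by edgeR). The hairpins' values for NDUFS1 differed by −0.12 (adjusted p = 0.062 by edgeR). After an offset for GC content and length, NDUFV1 (−0.05, adjusted p = 0.23 by edgeR) and NDUFS1 (0.01, adjusted p = 0.93 by edgeR) were no longer called. With lengths from the longest transcript in that offset, both were called lower, NDUFS1 at −0.29.

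All 3 nuclear core subunits of the quinone module fell, where 26.4% of all genes tested did, with a median log2 fold change of −0.57. Of protein-coding genes with a transcript of at most 1000 nt, as NDUFS3 and NDUFS8 have by the lengths used here, 50.1% fell. NDUFS8 (ENSG00000110717, chromosome 11, 68030617 to 68036644, plus strand), which holds a pair of iron-sulfur clusters, was at 157 and 155 CPM in control, 110.0 and 107 CPM with hairpin 1 and 91.7 and 102 CPM with hairpin 2. It fell 1.52-fold with no overlap between control and knockdown (log2 change −0.60, SE 0.05, adjusted p = 1.6e-05 by edgeR). NDUFS7 (ENSG00000115286, chromosome 19, 1383527 to 1395589, plus strand), which carries the last cluster before ubiquinone, held 79.1 and 76.7 CPM in control, 62.6 and 60.2 CPM with hairpin 1 and 54.4 and 55.6 CPM with hairpin 2. Its fall (log2 change −0.42, SE 0.04, adjusted p = 5e-05 by edgeR) was not called after the GC and length offset (0.01, adjusted p = 0.9 by edgeR). NDUFS8 was still called after that offset. With lengths from the longest transcript in the offset, NDUFS7 was called lower and NDUFS8 was not called. NDUFS3, a core subunit of the same module, fell as well (112 and 109 CPM in control, 78.3 and 91.5 CPM with hairpin 1 and 64.7 and 66.3 CPM with hairpin 2, log2 change −0.57, SE 0.06, adjusted p = 6.9e-05 by edgeR). Exons of NDUFS3 overlap those of PTPMT1 on the same strand, which leaves some of its reads uncertain.

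Of the 9 accessory subunits of the peripheral arm 4 fell and 5 did not pass, with a median of −0.12. Over both hairpins 26.4% of all genes tested fell, as did 50.1% of protein-coding genes with a transcript of at most 1000 nt. NDUFA2 (ENSG00000131495, chromosome 5, 140638740 to 140647785, minus strand), a small thioredoxin-like subunit, held 56.6 and 57.9 CPM in control, 40.3 and 41.6 CPM with hairpin 1 and 38.2 and 36.3 CPM with hairpin 2. Control and knockdown did not overlap (log2 change −0.55, SE 0.05, adjusted p = 2.9e-05 by edgeR). NDUFA6 (ENSG00000184983, chromosome 22, 42085525 to 42090955, minus strand), an LYR-motif protein that binds an acyl carrier protein, held 35.7 and 38.9 CPM, 27.7 and 29 CPM and 22.3 and 24.1 CPM in the same order, again without overlap (log2 change −0.54, SE 0.07, adjusted p = 0.00019 by edgeR). NDUFS6, which carries zinc, fell by 0.49 on the log2 scale, and NDUFA7 fell by 0.33. The call on NDUFA7 was lost without control replicate 2 (−0.24, adjusted p = 0.12 by edgeR). The members that did not pass were NDUFA5 (−0.02), NDUFA9 (−0.06), NDUFA12 (−0.07), NDUFV3 (−0.07) and NDUFS4 (−0.12), a late-joining subunit known from Leigh syndrome. NDUFA5 was nearly level, at 71.5 and 71.9 CPM in control, 71.2 and 69.4 CPM with hairpin 1 and 73.2 and 68.2 CPM with hairpin 2, but was called lower after the GC and length offset (−0.22, adjusted p = 0.00071 by edgeR). NDUFA12 passed once hairpin 1 replicate 2 was left out (−0.13, adjusted p = 0.046 by edgeR).

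Of the 9 accessory subunits of the proximal membrane arm 7 fell and 2 did not pass, where 26.4% of all genes tested fell. Most of the 9 have a transcript of at most 1000 nt by the lengths used here, and 50.1% of protein-coding genes in that class fell. The median was −0.39. NDUFA13 (ENSG00000186010, chromosome 19, 19515736 to 19529054, plus strand), also known as GRIM-19, held 143 and 132 CPM in control, 79.9 and 71.0 CPM with hairpin 1 and 92.3 and 87.4 CPM with hairpin 2. The lowest control stood well above the highest knockdown library (log2 change −0.74, SE 0.05, adjusted p = 1.4e-05 by edgeR). NDUFA11 (ENSG00000174886, chromosome 19, 5891276 to 5904006, minus strand), a membrane subunit of the TIM protein family, went from 124 and 113 CPM to 70.1 and 67.4 CPM with hairpin 1 and 88.1 and 85.6 CPM with hairpin 2 (log2 change −0.61, SE 0.04, adjusted p = 1.3e-05 by edgeR). Here the groups were ordered control, hairpin 2, hairpin 1, with no overlap. NDUFC2, NDUFA1, NDUFS5, NDUFC1 and NDUFA8 fell by 0.41, 0.39, 0.35, 0.29 and 0.29 on the log2 scale. NDUFA10, a subunit with a nucleoside kinase fold, did not pass (−0.04, adjusted p = 0.33 by edgeR). NDUFA3 was the scarcest member, at 1.82 and 2.86 CPM in control, 1.49 and 0.770 CPM with hairpin 1 and 0.272 and 1.80 CPM with hairpin 2, and its difference of −1.11 (SE 0.55, adjusted p = 0.13 by edgeR) did not pass. Its counts ran from 11 to 70 between the hairpin 2 replicates. Without hairpin 2 replicate 2 it was called (−2.06, adjusted p = 0.0034 by edgeR), and without hairpin 2 replicate 1 the difference was −0.71.

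Of the 11 accessory subunits of the distal membrane arm 10 fell and 1 did not pass, where 26.4% of all genes tested fell. All 11 have a transcript of at most 1000 nt by the lengths used here, and 50.1% of protein-coding genes in that class fell. The median was −0.41. NDUFB11 (ENSG00000147123, chromosome X, 47142216 to 47145504, minus strand), an X-linked single-pass membrane subunit, held 125 and 124 CPM in control, 76.6 and 80.9 CPM with hairpin 1 and 88.8 and 91.6 CPM with hairpin 2. NDUFB8 (ENSG00000166136, chromosome 10, 100523740 to 100530000, minus strand), whose protein is widely used as a marker of assembled complex I, held 157 and 164 CPM in control, 97.4 and 92.1 CPM with hairpin 1 and 124 and 121 CPM with hairpin 2. Both mRNAs were lowest with hairpin 1 and between the other groups with hairpin 2. The fold changes were −0.56 (SE 0.04, adjusted p = 8.6e-06 by edgeR) and −0.57 (SE 0.04, adjusted p = 9.8e-06 by edgeR) on the log2 scale. NDUFB7, NDUFB9, NDUFB1, NDUFB10, NDUFB3 and NDUFB2 fell by 0.46, 0.44, 0.43, 0.41, 0.40 and 0.39. NDUFB6 fell by 0.29, a call lost without control replicate 2 (−0.21, adjusted p = 0.058 by edgeR). NDUFB5 fell by 0.13, a call lost in 5 of the 6 fits that left out a library, the exception being hairpin 1 replicate 2. NDUFB4 (−0.17, adjusted p = 0.12 by edgeR) did not pass, but did without control replicate 1 (−0.28) or without hairpin 1 replicate 1 (−0.25). The mitochondrial acyl carrier protein NDUFAB1 (ENSG00000004779, chromosome 16, 23581002 to 23596356, minus strand), which sits in the complex and also serves fatty acid synthesis, held 126 and 129.9 CPM in control, 114 and 119 CPM with hairpin 1 and 106 and 108 CPM with hairpin 2. Its groups did not overlap, and it fell by 0.20 (SE 0.04, adjusted p = 0.0022 by edgeR).

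**Figure D2:**
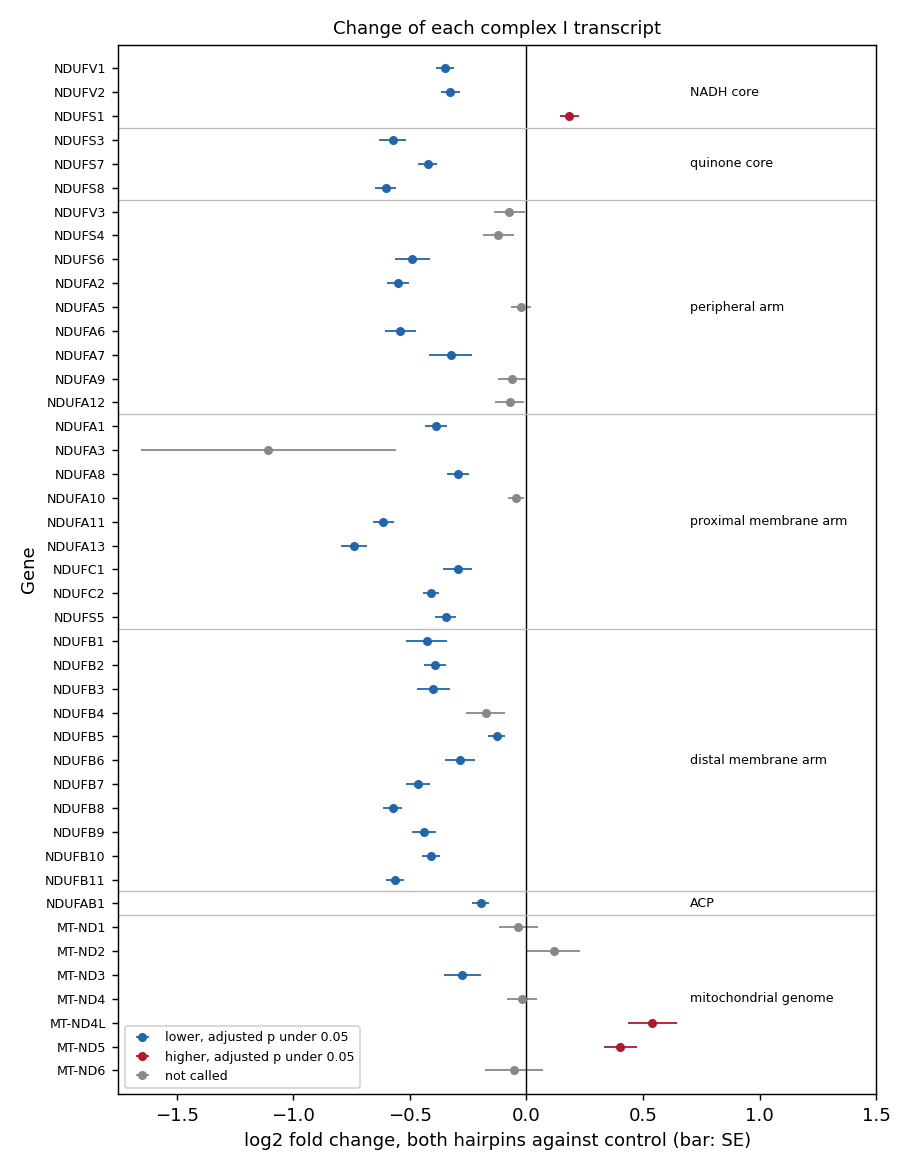
Log2 fold change of each complex I mRNA (x axis) over both hairpins against control, with its standard error, ordered by role (y axis). Blue points fell, red points rose and grey points did not pass at an adjusted p of 0.05. Of the nuclear members 27 are blue and NDUFS1 alone is red.

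By the lengths used here most nuclear members have short transcripts, and short transcripts as a class were lower. A gene's length is that of its GENCODE transcript of median length (353 nt for NDUFS8), which need not be the one these cells express. The members' median was 708 nt, against 2304 nt over 13907 protein-coding genes. Their median GC content of 51.2% was close to the 50.5% of those genes. Across these genes, which are not independent replicates, the log2 fold change over both hairpins had a Spearman correlation of 0.35 with length and −0.42 with GC content. Among the 1740 genes with a transcript of at most 1000 nt, 50.1% fell and 11.8% rose, with a median of −0.27, and 23 of the 28 nuclear members in that class fell, with a median of −0.40. Among the 12167 longer genes 27.7% fell and 30.1% rose, with a median of 0.02, and 4 of 8 members fell, with a median of −0.21. With an offset for GC content and length in the fit, 19 nuclear members were lower and none higher, where 31% and 22.7% of the 13907 genes in that fit were. Their median was −0.17, against −0.03 over those genes. Of the 27 falls 18 were still called, and the 9 that were not were NDUFA7, NDUFA8, NDUFAB1, NDUFB2, NDUFB7, NDUFB10, NDUFS6, NDUFS7 and NDUFV1. With hairpin 1 alone the offset left 14 lower and 2 higher, where 28.7% and 27.8% of those genes were. Over both hairpins with the offset, NDUFA13 (−0.32), NDUFA11 (−0.38), NDUFA2 (−0.37), NDUFA6 (−0.48) and NDUFS3 (−0.30) were among those that still fell. Over both hairpins with lengths from the longest transcript in the offset, 22 nuclear members were lower and 1, NDUFB10, higher, with a median of −0.19. Of the 13907 genes 7148 were called there, 4110 of them lower, with a median of −0.02. The falls of NDUFS8, NDUFS5, NDUFS6 and NDUFC1 kept their sign there but were not called. Whether the trend with length arose in the cells or in the libraries was not tested.

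**Figure D3:**
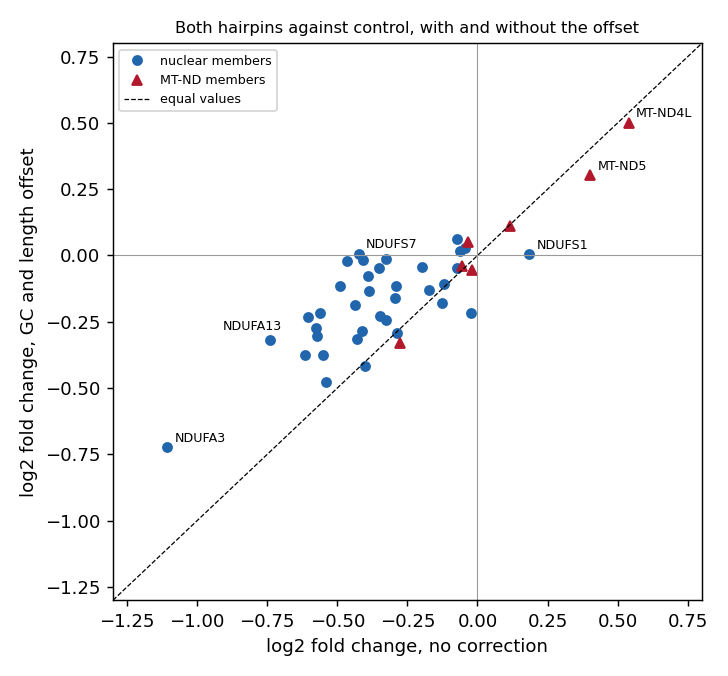
Log2 fold change over both hairpins against control without correction (x axis) and with an offset for GC content and length (y axis), circles for the 36 nuclear members and triangles for the 7 MT-ND members. Most circles lie above the dashed line of equal values, and the nuclear median moves from −0.39 to −0.17.

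The 7 MT-ND mRNAs encode the membrane core of the complex, the proton-pumping channels and the floor of the quinone site. Over both hairpins against control 2 rose, 1 fell and 4 did not pass, where 50% of all genes tested changed in either direction. MT-ND5 (ENSG00000198786, the mitochondrial genome, 12337 to 14148, plus strand), the distal antiporter-like pump subunit, held 638 and 758 CPM in control, 929.7 and 944 CPM with hairpin 1 and 859 and 956 CPM with hairpin 2. All 4 knockdown libraries exceeded both controls, and MT-ND5 rose 1.32-fold (log2 change 0.40, SE 0.07, adjusted p = 0.0016 by edgeR). MT-ND4L (ENSG00000212907, the mitochondrial genome, 10470 to 10766, plus strand), a small membrane subunit, held 384 and 506 CPM in control, 765 and 662 CPM with hairpin 1 and 569 and 604 CPM with hairpin 2. It rose 1.45-fold, again without overlap (log2 change 0.54, SE 0.10, adjusted p = 0.0026 by edgeR), and by 0.35 without control replicate 1. MT-ND3 (ENSG00000198840, the mitochondrial genome, 10059 to 10404, plus strand), which lines the path to the quinone site, held 309 and 391 CPM in control, 297 and 287 CPM with hairpin 1 and 279.8 and 294 CPM with hairpin 2. Its fall (log2 change −0.28, SE 0.08, adjusted p = 0.019 by edgeR) was not called without control replicate 2 (−0.10, adjusted p = 0.13 by edgeR) or without hairpin 2 replicate 1 (adjusted p = 0.056 by edgeR), and was −0.44 without control replicate 1.

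MT-ND4 (ENSG00000198886, the mitochondrial genome, 10760 to 12137, plus strand), a pump subunit read from the same bicistronic mRNA as MT-ND4L, held 2693 and 3026 CPM in control, 3155 and 3324 CPM with hairpin 1 and 2301 and 2619 CPM with hairpin 2. Over both hairpins it did not pass (−0.02, adjusted p = 0.83 by edgeR), and hairpin 1 libraries lay above and hairpin 2 libraries below both controls. With hairpin 2 alone MT-ND4 was called lower (−0.22, adjusted p = 0.037 by edgeR) and MT-ND4L higher (0.40, adjusted p = 0.021 by edgeR), although they share an mRNA. The 2 reading frames overlap, so reads at their junction cannot be assigned with certainty. How counts were divided between the 2 rows was not tested, so the rise of MT-ND4L is uncertain as a change of the mRNA. MT-ND1 (ENSG00000198888, the mitochondrial genome, 3307 to 4262, plus strand), which forms the quinone-binding chamber, held 1729 and 2176 CPM, 1970.5 and 1903 CPM and 1770.1 and 1984 CPM in the order control, hairpin 1 and hairpin 2. MT-ND2 (ENSG00000198763, the mitochondrial genome, 4470 to 5511, plus strand), a pump subunit, held 1272 and 1714 CPM, 1581 and 1757 CPM and 1449 and 1693 CPM in that order. A nuclear copy on chromosome 1, MTND2P28, drew counts equal to 14.1% to 16.3% of those of MT-ND2, so its level is uncertain to that extent. MT-ND6 (ENSG00000198695, the mitochondrial genome, 14149 to 14673, minus strand), the sole member on the opposite strand, held 29.8 and 39.2 CPM, 32.2 and 33.3 CPM and 29.6 and 38.0 CPM. In each of these 3 genes the groups overlapped, and the fold changes over both hairpins were −0.03, 0.12 and −0.05. The control libraries themselves were apart, with replicate 1 below replicate 2 for all 7 MT-ND genes. Without control replicate 1 MT-ND1 was called lower (−0.19, adjusted p = 0.046 by edgeR), and without control replicate 2 MT-ND2 was called higher (0.35, adjusted p = 0.015 by edgeR). After the GC and length offset MT-ND5 (0.30) and MT-ND4L (0.50) were still called higher and MT-ND3 (−0.33) lower.

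Shares within the mitochondrial mRNA pool do not depend on how the libraries were scaled. Of the counts on the 13 mitochondrial mRNAs, MT-ND5 took 2.81% and 2.85% in control, 3.66% and 3.70% with hairpin 1 and 4.0% and 4.0% with hairpin 2. MT-ND4L took 1.69% and 1.91% in control, 3.01% and 2.60% with hairpin 1 and 2.65% and 2.53% with hairpin 2. MT-ND3 took 1.37% and 1.47% in control, 1.17% and 1.12% with hairpin 1 and 1.30% and 1.23% with hairpin 2. For MT-ND5 and MT-ND4L all 4 knockdown shares were above both controls, and for MT-ND3 all 4 were below. Over both hairpins against control, 2 of the other 6 mitochondrial mRNAs, those of complexes III, IV and V, fell and none rose. Of all genes tested 26.4% fell and 23.6% rose, so the share that fell is near that of all genes. The 2 were MT-CO2 (−0.34, adjusted p = 0.00026 by edgeR) and MT-CO3 (−0.25, adjusted p = 0.0055 by edgeR), which encode cytochrome c oxidase subunits. None of the 6 was higher at an unadjusted p under 0.05 by edgeR, and DESeq2 and limma-voom called 0 higher. The call on MT-CO3 was lost without control replicate 2 (adjusted p = 0.054 by edgeR), where MT-ATP8, which did not pass (0.26), was called higher (0.55).

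Set side by side over all 6 libraries, the nuclear sum fell with both hairpins, while no MT-ND sum lay below both controls. The CPM of the 36 nuclear members summed to 3737 and 3702 in control, 2957 and 3024 with hairpin 1 and 2889 and 2935 with hairpin 2, which is 3719 ± 24.6, 2990.4 ± 46.9 and 2912 ± 32.7 CPM (SD, n = 2 each). All 4 knockdown sums were below both controls, at 80.4% of the control mean with hairpin 1 and 78.3% with hairpin 2. The CPM of the 7 MT-ND members summed to 7055 and 8610.0 in control, 8729.8 and 8908 with hairpin 1 and 7258 and 8187 with hairpin 2. These overlapped between control and hairpin 2, and the means were 7833 ± 1099, 8819 ± 126 and 7723 ± 657 CPM (SD, n = 2 each), or 113% and 98.6% of control. The ratio of the MT-ND sum to the nuclear sum was 1.89 and 2.33 in control, 2.95 and 2.95 with hairpin 1 and 2.51 and 2.79 with hairpin 2. All 4 knockdown ratios exceeded both controls, with means of 140.0% and 126% of control. The summed CPM of the other 6 mitochondrial mRNAs averaged 99.2% of control with hairpin 1 and 89.1% with hairpin 2. None of these sums was corrected for GC content or length. Per kilobase of transcript, the median MT-ND level was 1221 and 1645 CPM in the controls and the median nuclear level 114 and 119 CPM. Mitochondrial ribosomal RNAs took 0.462% and 0.529% of counts in control, 0.682% and 0.670% with hairpin 1 and 0.621% and 0.682% with hairpin 2. Their part in these sums was not tested.

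**Figure D4:**
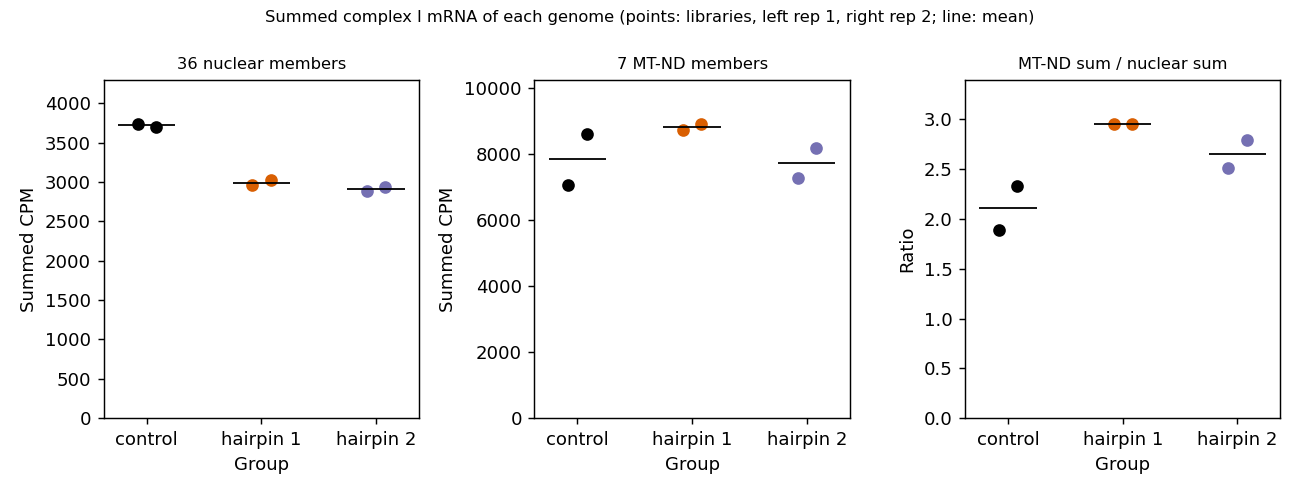
Summed CPM of the 36 nuclear members (left), summed CPM of the 7 MT-ND members (middle) and the ratio of the sums (right) in each library, by group on the x axis, with a line at each group's mean. Nuclear sums average 3719 CPM in control, 2990.4 CPM with hairpin 1 and 2912 CPM with hairpin 2, MT-ND sums overlap between control and hairpin 2, and all 4 knockdown ratios lie above both controls.

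The share of nuclear members that differed between the hairpins, 18 of 36, was near the 46.2% of all genes tested that did. Between hairpin 2 and hairpin 1, 11 nuclear members were lower with hairpin 2 and 7 higher, where 23.3% and 22.9% of all genes were, and the median was −0.09. NDUFB8 and NDUFA11, given above, were higher with hairpin 2 by 0.37 (SE 0.05, adjusted p = 0.00028 by edgeR) and 0.34 (SE 0.05, adjusted p = 0.001 by edgeR) on the log2 scale. NDUFA8 (ENSG00000119421, chromosome 9, 122144058 to 122159819, minus strand), a cysteine-rich subunit on the intermembrane-space side, held 58.1 and 57.8 CPM in control, 52.9 and 56.6 CPM with hairpin 1 and 41.2 and 40.5 CPM with hairpin 2. Hairpin 1 libraries were next to the controls and hairpin 2 libraries well below, a difference of −0.42 (SE 0.05, adjusted p = 0.00032 by edgeR). NDUFB9 (ENSG00000147684, chromosome 8, 124539101 to 124580648, plus strand), another LYR-motif protein, held 187 and 178 CPM in control, 147 and 165 CPM with hairpin 1 and 113 and 119.6 CPM with hairpin 2, with the groups in that order and a difference of −0.42 (SE 0.06, adjusted p = 0.0006 by edgeR). By role, all 3 quinone-module core subunits were lower with hairpin 2, and in the proximal membrane arm 4 were higher and 2 lower. Of the MT-ND members MT-ND4 alone differed, by −0.40 (SE 0.07, adjusted p = 0.0023 by edgeR). BCAT1 itself was higher with hairpin 2 by 1.03.

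**Figure D5:**
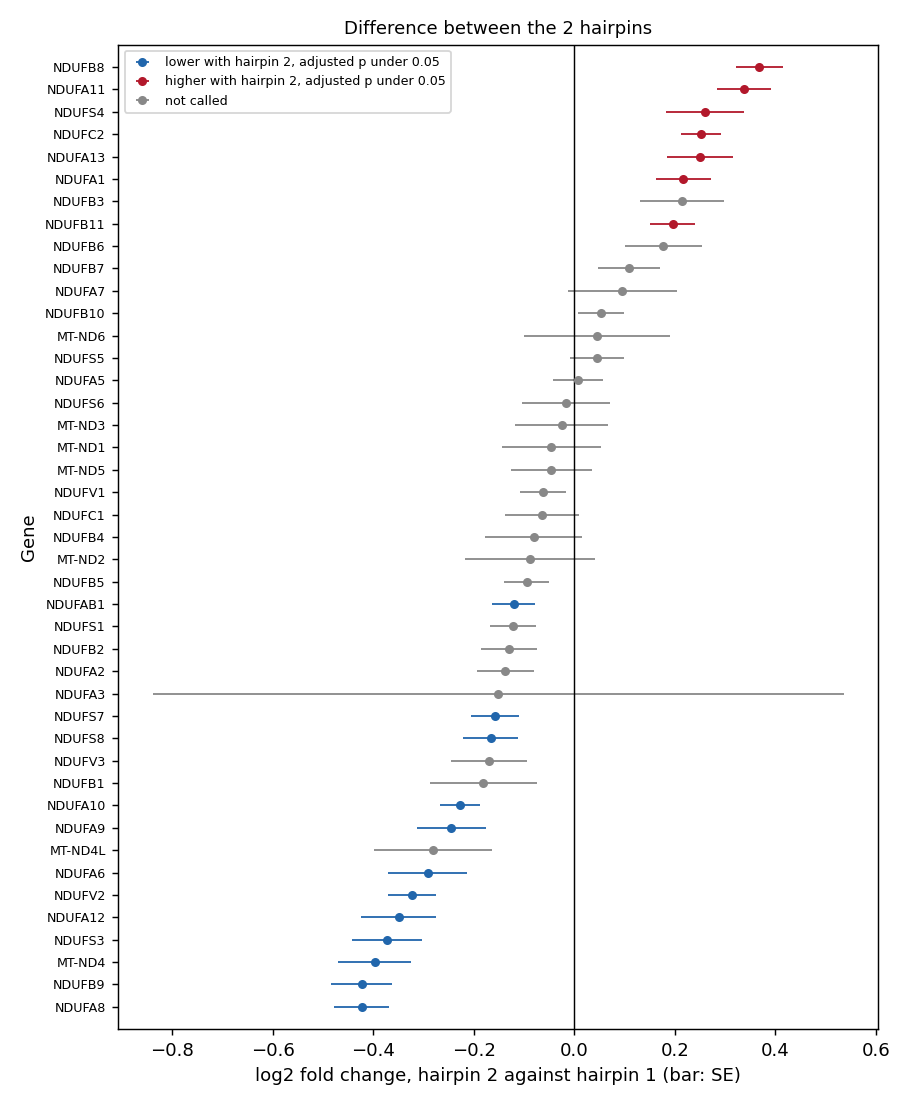
Log2 fold change of each complex I mRNA with hairpin 2 against hairpin 1 (x axis), with its standard error, sorted by value (y axis). Red points are higher with hairpin 2, blue points lower and grey points did not pass. NDUFB8 leads the 7 that were higher, and NDUFA8 and NDUFB9 stand lowest.

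The other gene lists of the pathway are counted over both hairpins against control, where 26.4% of all genes tested fell and 23.6% rose. Of 19 assembly factors 9 fell, 1 rose and 9 did not pass, with a median of −0.16. TIMMDC1, which builds the membrane arm, held 139.7 and 134 CPM in control, 46.8 and 43.9 CPM with hairpin 1 and 132 and 133 CPM with hairpin 2. It fell steeply with hairpin 1 (−1.59, adjusted p = 2.9e-07 by edgeR), with hairpin 2 its value was −0.04 (adjusted p = 0.45 by edgeR), and the difference between hairpins was 1.55 (adjusted p = 2e-07 by edgeR). ECSIT fell by 0.55 and NDUFAF8 by 0.45, the second of these not called after the GC and length offset (−0.05). The factor that rose was NUBPL (0.51), which delivers iron-sulfur clusters to complex I and was picked after its value was seen. Its rise was called with hairpin 2 (0.85, adjusted p = 0.0003 by edgeR) but not with hairpin 1 (0.17, adjusted p = 0.24 by edgeR). For NUBPL the hairpins differed by 0.68 (adjusted p = 0.0011 by edgeR). Of 14 iron-sulfur cluster and intermembrane import factors 8 fell, 2 rose and 4 did not pass, with a median of −0.26, and BOLA3 (−0.68), HSCB (−0.47) and GLRX5 (−0.35) were among those that fell. Of 39 nuclear subunits of complexes II to V 34 fell and none rose, with a median of −0.37, close to the −0.39 of complex I. These too include short transcripts, such as that of COX8A (507 nt), beside longer ones, such as that of SDHA (2067 nt). Of protein-coding genes with a transcript of at most 1000 nt 50.1% fell, with a median of −0.27. The part of length in the falls of these 39 was not tested. At an unadjusted p under 0.05 0 of the 39 were higher by edgeR, DESeq2 and limma-voom called 0 higher, and after the GC and length offset 1, SDHD, was called higher. COX4I1, of complex IV, fell by 0.49, and UQCR11, of complex III, fell by 0.67. UQCR10, also of complex III, held 102 and 93.8 CPM in control, 99.8 and 105 CPM with hairpin 1 and 25.6 and 26.4 CPM with hairpin 2. Its log2 fold change was −0.92 over both hairpins, −1.91 with hairpin 2 (adjusted p = 6.7e-07 by edgeR) and 0.07 with hairpin 1 (adjusted p = 0.32 by edgeR), and the hairpins differed by −1.98 (adjusted p = 1.6e-07 by edgeR).

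Of 18 factors of mitochondrial transcription and RNA handling 6 rose, 5 fell and 7 did not pass, with a median of 0.08, shares near those of all genes (23.6% and 26.4%). LRPPRC, which stabilises mitochondrial mRNAs, held 427 and 438 CPM in control, 603 and 586 CPM with hairpin 1 and 572 and 573 CPM with hairpin 2, and rose by 0.43 on the log2 scale (SE 0.03, adjusted p = 1.8e-05 by edgeR). HSD17B10, a subunit of mitochondrial RNase P, rose by 0.52, and POLRMT, the mitochondrial RNA polymerase, fell by 0.38. Of 8 genes of mitochondrial DNA maintenance 1 rose, RRM2B (0.89, a ribonucleotide reductase subunit), and 2 fell, DGUOK (−0.20) and POLG (−0.11), the call on POLG being lost in 5 of the 6 fits that left out a library, the exception being hairpin 1 replicate 2. Of 8 nuclear regulators of respiratory genes 3 rose, 2 fell and 3 did not pass, with a median of −0.02, and the share that fell is near that of all genes. GABPA, the DNA-binding subunit of the ETS-family factor NRF2, held 19.5 and 21.8 CPM in control, 36.6 and 33.6 CPM with hairpin 1 and 33.9 and 32.7 CPM with hairpin 2, and rose by 0.73 (SE 0.07, adjusted p = 6.7e-05 by edgeR). PPARGC1A, a coactivator, rose by 1.66 from 0.449 and 0.297 CPM in control to 1.26 and 1.23 CPM with hairpin 1 and 1.04 and 1.23 CPM with hairpin 2, a low level throughout. ESRRA, a nuclear receptor that partners it, fell by 0.31, a call lost after the GC and length offset (−0.07).

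Promoter sequence was examined because the nuclear members lie on 18 chromosomes and yet mostly moved one way. RefSeq (GRCh38.p14) gave a 300-base window, from 250 bases before to 50 after the start, for 32 of the 36, all but NDUFB5, NDUFB9, NDUFC2 and NDUFS5. Both strands were searched for 4 motifs: NRF1 as GCGCANGCG, the ETS core as CCGGAAG, YY1 as AAGATGGCG, and the E-box that MYC family factors bind as CACGTG. The NRF1 motif was in 9 of 32 member promoters (28.1%) and in 8.0% of all 27305 promoters, and the YY1 motif was in 5 (15.6%) and in 1.8% of all. A first search with longer forms, GCGCANGCG followed by C and AAGATGGCG followed by GC, had found 6 (18.8%, and 6.3% of all) and 2 (6.2%, and 0.9% of all). The ETS core was in 5 (15.6%) and in 10.7% of all, and the E-box was in 3 (9.4%) and in 7.4% of all. Members with the NRF1 motif were NDUFA3, NDUFA8, NDUFA9, NDUFA11, NDUFA12, NDUFAB1, NDUFB4, NDUFS6 and NDUFS7, of which 5 fell, while 18 of the 23 members without it fell. The YY1 motif lay in the promoters of NDUFA6, NDUFA7, NDUFA9, NDUFS4 and NDUFS7, of which 3 fell, as did 20 of the 27 without it. The E-box lay in those of NDUFS7, NDUFA7 and NDUFA11, all of which fell, as did 20 of the 29 without it. The ETS core lay in those of NDUFA1, NDUFA13, NDUFB7, NDUFS3 and NDUFS1, the first 4 of which fell and the last of which rose. A member can hold more than 1 motif, and a match describes letters in a window, not binding. The sequences below show the matches, in capitals, in the called member with the smallest p of each role group that has a match before its RefSeq start, written 5′ to 3′ along the gene's strand.
NDUFS1 ETS, chr2:206159586-206159610, minus strand: ctggggccaCTTCCGGcggaactgc
NDUFS7 E-box, chr19:1383711-1383734, plus strand: cgcggccccCACGTGcgcactccg
NDUFS7 NRF1, chr19:1383824-1383850, plus strand: tccggtttcCGCATGCGCtccgagccg
NDUFS6 NRF1, chr5:1801341-1801389, plus strand: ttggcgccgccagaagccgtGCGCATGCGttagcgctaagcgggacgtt
NDUFA11 E-box, chr19:5903908-5903931, minus strand: ctggggatgCACGTGctactctct
NDUFA11 NRF1, chr19:5903870-5903896, minus strand: ggtccccggCGCGTGCGCgcgatccat
NDUFB7 ETS, chr19:14572067-14572110, minus strand: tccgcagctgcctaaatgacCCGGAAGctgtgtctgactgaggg
NDUFAB1 NRF1, chr16:23596344-23596370, minus strand: cgtgtgcgtCGCCTGCGCgccgccgga
Windows are counted from the RefSeq start, which in NDUFS1, NDUFS7 and NDUFA11 lies 159, 380 and 216 bases into the GENCODE gene, so their matches are inside the gene as GENCODE draws it. In NDUFAB1 it lies 40 bases in, and the GENCODE start falls within the match. The ETS core is on the opposite strand in NDUFS1 and NDUFA1, on the gene's own strand in NDUFA13 and NDUFB7, and on both strands in NDUFS3. NDUFS7 and NDUFA11 each hold an E-box and an NRF1 match on the opposite strand.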

How the data were processed

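Total RNA of SK-N-BE(2) cells was extracted with TRIzol and turned into libraries with an Illumina TruSeq kit, according to the extraction notes per the labels. Per the submitters' processing notes, HISAT2 2.2.0 and StringTie were used with build hg38. How strand, annotation and multi-mapped reads were handled in counting is not given in the sources used here. For each of 6 libraries in 3 groups, the authors deposited raw counts by Ensembl gene, in whole numbers.

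Ensembl IDs were paired with symbols through a reference table, and coordinates, lengths and exon overlaps from a GENCODE annotation of the same build. Exons of 21 of the 36 nuclear members overlap another gene, 12 of them on the same strand, so a part of their reads is uncertain. The test used edgeR 4.0.16 under R 4.3.3: filterByExpr by group (minimum count 10), TMM factors (0.96 to 1.03), a term per group and no other, glmQLFit and glmQLFTest on all 6 libraries (3 residual degrees of freedom, biological coefficient of variation 8.66%), two-sided, Benjamini-Hochberg adjusted over all 18734 genes tested. Standard errors were derived from each F statistic. The script was tested on simulated counts. The 4 contrasts set control against the hairpins' mean and against each of them, and hairpin 2 against hairpin 1. The offset for GC content and length was a smooth of each library over protein-coding genes, using the transcript of median length. Replicates were compared first: the mean chi-square per gene was 5.73 to 8.23, where sampling noise gives 1, and none was counted as a duplicate.

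Named members were, in each role group, the 2 with the smallest p over both hairpins, any called against its group's direction, the 2 extremes of the hairpin difference on each side, and all MT-ND genes. Of each other list the 3 genes with the smallest p were named. TFAM and other genes outside this rule were left out, except where stated. The members, the lists and the tests were chosen with earlier results of these data known. Alternatives were RLE size factors, scaling without mitochondrial genes, other filters, DESeq2 1.42.0, limma-voom (limma 3.58.1), a replicate block, only the groups compared, a fold of 1.5, summed rows of a symbol, the GC and length offset with and without the block, and each library left out. A GC offset alone and lengths from the longest transcript were added after seeing the data. The NRF1 and YY1 motifs were shortened after a first search with longer forms.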

Additional observations from a re-analysis of the deposited data

Results flagged for a closer look

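The hairpins' effects differed, by edgeR's test of hairpin 2 against hairpin 1 at an adjusted p under 0.05, for 19 of the 43 members, where 46.2% of all genes tested differed, so the share of members is near that of all genes. Values are log2 differences, negative where hairpin 2 was lower. Of the core subunits of the peripheral arm, NDUFV2 differed by −0.32, NDUFS3 by −0.37, NDUFS7 by −0.16 and NDUFS8 by −0.17, all of them having fallen further with hairpin 2. Of its accessory subunits, NDUFA6 differed by −0.29, NDUFA9 by −0.24, NDUFA12 by −0.35 and NDUFS4 by 0.26. In the proximal membrane arm NDUFA8 (−0.42) and NDUFA10 (−0.23) were lower with hairpin 2, while NDUFA1 (0.22), NDUFA11 (0.34), NDUFA13 (0.25) and NDUFC2 (0.25) were higher. In the distal arm NDUFB8 (0.37) and NDUFB11 (0.20) were higher with hairpin 2 and NDUFB9 (−0.42) lower. NDUFAB1 differed by −0.12 and MT-ND4 by −0.40.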

How the results depend on the processing

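The count of 27 nuclear falls over both hairpins stayed at 27 under RLE size factors, scaling without mitochondrial genes, both other filters, DESeq2, limma-voom and summed rows of a symbol. A fold above 1.5 by glmTreat left 1 fall and 0 rises over both hairpins, 3 falls with hairpin 1, 0 with hairpin 2, 0 hairpin differences and 0 MT-ND changes. The GC and length offset left 0 rises over both hairpins, and 14 falls with hairpin 1. GC alone left 0 rises and 31 falls over both hairpins. Lengths from the longest transcript left 22 falls and 1 rise over both hairpins, 15 falls with hairpin 1 and 5 MT-ND changes. Leaving out each library gave 24 to 28 falls and 1 rise over both hairpins, 21 to 26 falls with hairpin 1, 23 to 29 with hairpin 2, 12 to 17 hairpin differences and 2 to 4 MT-ND changes. Replicate numbers are shared between groups, and the labels do not say whether they pair the libraries. Deviations from the group mean correlated between groups at 0.0044, −0.038 and −0.033, which cannot settle pairing with 2 libraries a group. In every group the MT-ND sum was lower in replicate 1 than in replicate 2. A replicate block gave 27 falls and 1 rise over both hairpins, 26 falls with hairpin 1, 29 with hairpin 2, 16 hairpin differences and 3 MT-ND changes, and changed no member's call over both hairpins. The GC and length offset with the block gave 18 falls, 0 rises and 13 falls with hairpin 1.

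Signs turned for these values over both hairpins, called only where stated. With the GC and length offset, without and with the block, NDUFS7 was 0.0071 and 0.0073, NDUFV3 0.061 and 0.060, NDUFA9 0.018 and 0.017, NDUFA10 0.027 and 0.027, and MT-ND1 0.051 and 0.057. With GC alone NDUFS1 was −0.00019, MT-ND2 −0.083, MT-ATP8 −0.013 and POLG 0.10 (called). With the longest transcript NDUFS1 (−0.29), NDUFB10 (0.098) and MT-ND1 (0.22) were called, and NDUFS4 was 0.041, NDUFA7 0.10, NDUFA12 0.14, NDUFA1 0.013, NDUFA8 0.054, NDUFB7 0.047, NDUFAB1 0.066, MT-ND4 0.093, MT-ND6 0.079, NDUFAF8 0.053, DGUOK 0.072, POLG 0.0025 and ESRRA 0.0035. Leaving out each library in turn gave ranges across 0 for MT-ND1 (−0.19 to 0.14), MT-ND2 (−0.086 to 0.35), MT-ND4 (−0.10 to 0.066), MT-ND6 (−0.24 to 0.16) and NDUFA5 (−0.055 to 0.0018). The cause was not tested. NDUFA3 had 11 to 106 counts a library, and 2 libraries a group limit the precision of every value.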
